A study of Homo sapiens with 4 samples.

Results

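The 10 genes described here encode SOX11, a SOX family factor that marks mantle cell lymphoma, and 9 transcription factors or cofactors that set B cell and plasma cell identity: PAX5, EBF1, IRF4, IRF8, PRDM1, BCL6, BACH2, POU2AF1 and SPIB. They were chosen by symbol from the 25277 symbols of a table of FPKM values (fragments scaled to transcript length and to mapped fragments), and all 10 were found. The cells were Mino and Z138, human cell lines established from mantle cell lymphoma, a cancer of mature B cells. Each line carried either a doxycycline-inducible (tet-on) small hairpin against BTK, the kinase downstream of the B cell receptor, or a control vector named sc4, whose content the labels do not give. All 4 cultures received doxycycline for 48 hours, so the controls share the induction. A single hairpin was used, with 1 library per line and vector, and the labels do not say whether a stable line was 1 clone or a pool.

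EBF1 and PAX5 start and hold the B cell programme, and PAX5 switches on genes of the B cell receptor complex. SPIB and IRF8 work together on composite DNA sites in B cells, POU2AF1 is a coactivator that joins the octamer-binding factors, and BACH2 and BCL6 hold back the plasma cell programme, with BCL6 required in the germinal centre. IRF4 and PRDM1 (the BLIMP1 gene) drive plasma cell formation, PRDM1 by repressing B cell genes. SOX11 is absent from normal mature B cells, and in mantle cell lymphoma it has been linked to upkeep of PAX5 and to restraint of PRDM1 and BCL6.

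The summed FPKM of a library ran from 669013 to 740192, and read depth is unknown. Pairs of values below give the control library and then the hairpin library of a line. BTK, the target, measured 37.0 and 9.84 FPKM in Mino against 51.0 and 12.4 in Z138, a mean log2 difference of −1.88 (SE 0.13, adjusted p = 0.000964 in limma). Across 10477 genes the hairpin to control log2 ratio had a Spearman rho of −0.57 with GC content in Z138 and of 0.11 in Mino, and ratios with this trend removed are given where they bear on a result. Of the B cell markers, CD79A ranged from 557 to 744 FPKM. CCND1, the cyclin D1 gene whose translocation defines most mantle cell lymphomas, was at 591 and 600 FPKM in Z138 but at 3.18 and 2.62 FPKM in the libraries labelled Mino, which goes against that definition. The line names are used as the labels give them, line identity was not tested, and each difference between the lines is one between libraries so labelled. CD5, another usual marker, was at 2.33 and 1.70 FPKM in Mino against 0.0751 and 0.0531 in Z138. CD22 was at 107 and 102 FPKM in Mino against 3.34 and 5.96 in Z138. Markers of myeloid cells summed to at most 0.482 FPKM and erythroid markers to at most 0.0616 FPKM, and the summed level of 5 T cell markers was 1.72 to 4.67 FPKM. The 4 stromal and epithelial markers summed to 14.9 and 13.8 FPKM in Mino against 1.31 and 1.13 in Z138, the highest being EPCAM at 7.29 and 7.56 in Mino, and their part in the line differences was not tested.

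All 10 genes were above 0 in every library, and their order of level differed between the lines. In Mino, SPIB was highest, followed by IRF4 and IRF8, BCL6, POU2AF1, SOX11 and PAX5, PRDM1 and BACH2, and EBF1. The values of the Mino libraries overlapped between IRF4 and IRF8, between SOX11 and PAX5, and between PRDM1 and BACH2, so the order within these pairs is not set. In Z138, IRF4 was highest, followed by POU2AF1, SPIB, SOX11, PAX5, then PRDM1 and IRF8, whose values overlapped, and EBF1, BACH2 and BCL6. IRF4 lay at the 94.5 to 94.9 percentile of the 11484 tested symbols (mean FPKM of 1 or more) over the 4 libraries. BCL6 lay at the 91.1 percentile in the Mino control and at the 5.91 percentile in the Z138 control.

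**Figure D1:**
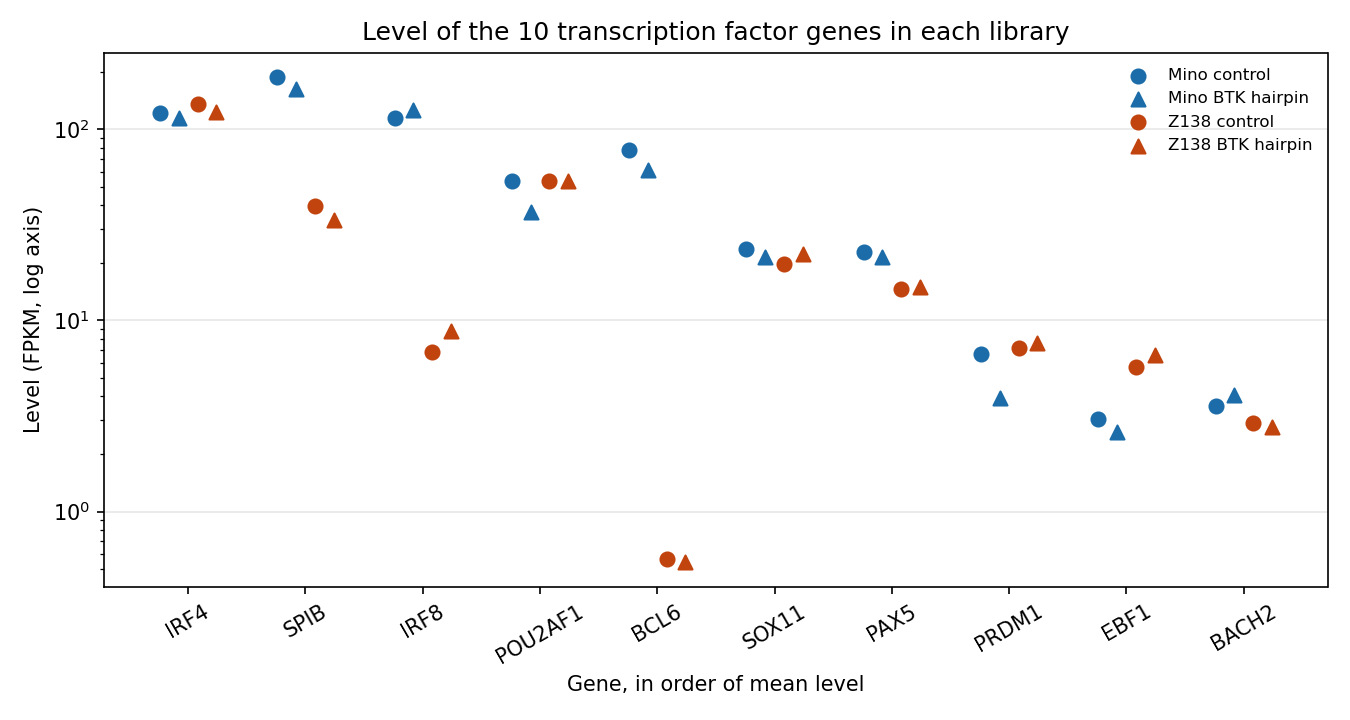
FPKM (log axis) of the 10 genes in each of the 4 libraries, 1 point per library, with circles for control and triangles for BTK hairpin libraries. BCL6 is at 78.1 and 61.2 FPKM in Mino against 0.567 and 0.541 in Z138, whereas the 4 points of SOX11 lie between 19.8 and 23.6.

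SOX11 was at a similar level in all 4 libraries. Its values were 23.6 and 21.5 FPKM in Mino against 19.8 and 22.1 in Z138. The hairpin library was lower than its control in Mino and higher in Z138, and the libraries of the lines overlapped. The mean hairpin difference was 0.013 on the log2(FPKM + 1) scale, a scale that understates changes of low genes (SE 0.13, 95% interval −0.30 to 0.32, adjusted p = 1.00 in limma). The difference between the lines, Z138 minus Mino, was −0.10 (SE 0.13, adjusted p = 0.513 in limma), and it was 0.025 once the libraries were scaled to a common median. SOX11 belongs to the SOX C group, whose other members are SOX4 and SOX12. SOX12 was likewise close in all libraries, at 9.81 to 11.6 FPKM, whereas SOX4 was at 41.8 and 29.9 FPKM in Mino against 11.1 and 10.8 in Z138.

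The comparison of hairpin with control asked whether loss of BTK message went with a change in these factors. None of the 10 genes passed the limma test over both lines, beside 0.122% of all 11484 tested symbols. An unadjusted p under 0.05 was seen for 0 of 10, beside 320 of the 11484. The fit had cell line and hairpin as terms, so each line served as its own control and the 2 lines were the only replication. The p-values weigh the mean response against how unlike the lines responded. That spread is pooled mostly over other tested symbols (1 residual and 6.88 prior degrees of freedom per gene). It is not the spread between cultures. A p that misses the threshold does not show that the levels were alike, and over the 10 genes the 95% intervals reached from −0.70 to 0.52 on the log2 scale.

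PRDM1, the plasma cell repressor gene, had the lowest ratio of the 10 in Mino. Its values were 6.64 and 3.95 FPKM in Mino against 7.16 and 7.66 in Z138. The Mino hairpin value is the low one of the 4, and the other libraries lie between 6.64 and 7.66. The log2 ratios were −0.63 in Mino, at the 1.02 percentile of the tested symbols, and 0.085 in Z138; their mean was −0.27 (SE 0.19, adjusted p = 1.00 in limma).

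POU2AF1, the octamer coactivator gene, showed the same arrangement. Mino gave 53.9 and 36.7 FPKM, and both Z138 libraries gave 53.3. The Mino hairpin library again held the low value. The log2 ratio in Mino was −0.54, at the 1.54 percentile, and the 2-line mean was −0.27 (SE 0.15, adjusted p = 1.00 in limma). POU2F1, which encodes a DNA-binding partner of POU2AF1, was at 4.05 and 3.23 FPKM in Mino against 4.02 and 4.03 in Z138. POU2F2, which encodes another partner, had a different pattern, with 154 and 131 FPKM in Mino against 9.83 and 8.96 in Z138.

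BCL6 was at 78.1 and 61.2 FPKM in Mino, a log2 ratio of −0.35 at the 4.93 percentile, and at 0.567 and 0.541 FPKM in Z138. SPIB was at 187 and 162 FPKM in Mino against 39.6 and 33.4 FPKM in Z138. Both SPIB ratios were below 0, at −0.20 and −0.24, with a mean of −0.22 (SE 0.12, 95% interval −0.49 to 0.048). IRF8 lay the other way in both lines, with 115 and 126 FPKM in Mino against 6.85 and 8.75 in Z138, with log2 ratios of 0.14 and 0.31 and a mean of 0.23 (SE 0.13, adjusted p = 1.00 in limma).

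The remaining genes had small mean differences between hairpin and control over both lines. For PAX5, EBF1 and BACH2 the ratios of the lines had opposite signs, with EBF1 at −0.16 in Mino and 0.17 in Z138. With GC and length trends removed, the Mino and Z138 ratios were −0.14 and 0.063 for EBF1. They were then −0.042 and 0.075 for PAX5, and 0.23 and −0.11 for BACH2. IRF4 was at 121 and 114 FPKM in Mino against 135 and 123 in Z138. PAX5 was at 22.9 and 21.5 FPKM in Mino against 14.5 and 14.9 in Z138. EBF1 was at 3.04 and 2.61 FPKM in Mino against 5.72 and 6.58 in Z138, and BACH2 at 3.56 and 4.07 in Mino and 2.92 and 2.77 in Z138. The mean log2 differences of these 4 were −0.11, −0.027, 0.0053 and 0.049. That of EBF1 was −0.014 with the libraries scaled to a common median, that of SOX11 −0.0095, and that of PAX5 0.016 with GC and length trends removed, so these 3 have no settled direction.

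By size alone, on the same log2(FPKM + 1) scale, 3 of the 10 genes were at least 1.2-fold lower in the Mino hairpin library (PRDM1, POU2AF1 and BCL6), against 8.72% of tested symbols, and none was 1.2-fold higher, against 7.42%. At 1.5-fold, PRDM1 alone was lower, against 1.24%, and none was higher, against 0.923%. In Z138, IRF8 alone was at least 1.2-fold higher, against 9.98%, and none was 1.2-fold lower, against 7.13%. The median ratio of the 10 was −0.15 in Mino and 0.015 in Z138, beside −0.0079 and 0.026 over all tested symbols. With the trends on GC content and transcript length removed, the Mino ratios of PRDM1, POU2AF1 and BCL6 were −0.61, −0.57 and −0.35, and the Z138 ratio of IRF8 was 0.37. With the libraries scaled to a common median, the Z138 ratio of SPIB was −0.30, past 1.2-fold, and that of IRF8 was 0.26, only just past it. With GC and length trends removed instead, the Z138 ratio of SPIB was −0.14, short of 1.2-fold. A line had 1 library per vector, so these within-line differences have no replicate check, and the difference between the lines' responses was not tested.

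**Figure D2:**
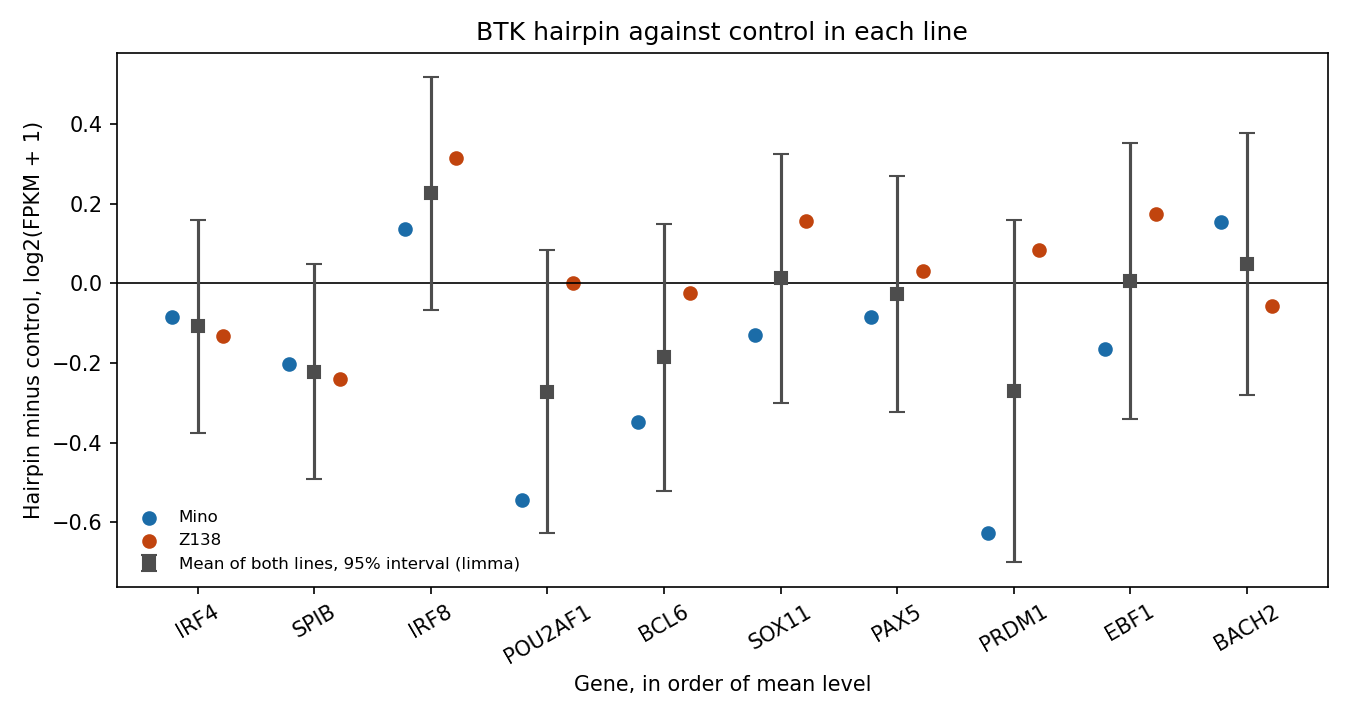
Hairpin minus control on the log2(FPKM + 1) scale for each gene, with 1 point per line and the limma mean of both lines with its 95% interval. Every interval includes 0, and PRDM1 and POU2AF1 have Mino points at −0.63 and −0.54 beside Z138 points at 0.085 and −0.00033.

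The comparison of Z138 with Mino gave much wider gaps for some of the factors. In the same limma fit, 5 of the 10 genes passed: BCL6, IRF8, SPIB and PAX5 were lower in Z138 and EBF1 was higher. That share is to be read beside the background, since 67.4% of all tested symbols passed, 38.8% as lower and 28.7% as higher in Z138. Each line's libraries differ in vector and are not repeat cultures, so the p-values do not measure the spread between cultures. They weigh the line difference against how unlike it was between the control and the hairpin pair, with the spread pooled as above. At 4-fold or more, 3 of the 10 passed as lower in Z138, against 6.33% of tested symbols (9.05% in either direction). Scaling the libraries to a common median removed a shift of −0.14 between the lines, taken over 13649 symbols, and values after scaling are given beside those as deposited. In bulk RNA, fewer cells expressing a gene and less RNA per cell cannot be told apart.

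BCL6, the germinal centre repressor gene, was 137.7-fold higher in the Mino than in the Z138 control library and 113-fold higher between the hairpin libraries. On the log2(FPKM + 1) scale Z138 minus Mino was −5.50 (SE 0.14, adjusted p = 1.29e-07 in limma) and −5.40 after scaling. IRF8 was 16.7-fold higher in Mino between controls and 14.4-fold higher between hairpin libraries, a log2 difference of −3.79 (SE 0.13, adjusted p = 2.31e-07 in limma) and −3.67 after scaling. SPIB was 4.72-fold and 4.87-fold higher in Mino, a log2 difference of −2.23 (SE 0.12, adjusted p = 1.69e-06 in limma) and −2.10 after scaling. For these 3 genes every Mino value lay above every Z138 value; in all, the lines did not overlap for 8 of the 10 genes (all but SOX11 and POU2AF1), beside 86.1% of tested symbols.

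PAX5 and EBF1 differed less. PAX5 was 1.57-fold and 1.45-fold higher in Mino, a log2 difference of −0.56 (SE 0.13, adjusted p = 0.00501 in limma) and −0.43 after scaling. EBF1 was 1.88-fold and 2.53-fold higher in Z138, a log2 difference of 0.90 (SE 0.15, adjusted p = 0.000909 in limma) and 1.01 after scaling. These 5 genes also passed in each of the fits that left out 1 library.

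The other 5 genes did not pass as deposited. IRF4 differed by 0.13 (SE 0.12, 95% interval −0.13 to 0.40), a span of 0.911-fold to 1.32-fold, and BACH2 by −0.33 (SE 0.14, adjusted p = 0.0736 in limma). PRDM1 differed by 0.45 (SE 0.19, adjusted p = 0.0603 in limma), and after scaling by 0.57 (adjusted p = 0.0105). POU2AF1 differed by 0.26 (SE 0.15, adjusted p = 0.171 in limma), and after scaling by 0.39 (adjusted p = 0.0358). The line values of both rest on the Mino hairpin library: without it, PRDM1 differed by 0.14 (adjusted p = 0.491) and POU2AF1 by −0.016 (adjusted p = 0.904). Without the Mino control library they differed by 0.76 (adjusted p = 0.0217) and 0.53 (adjusted p = 0.0194).

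**Figure D3:**
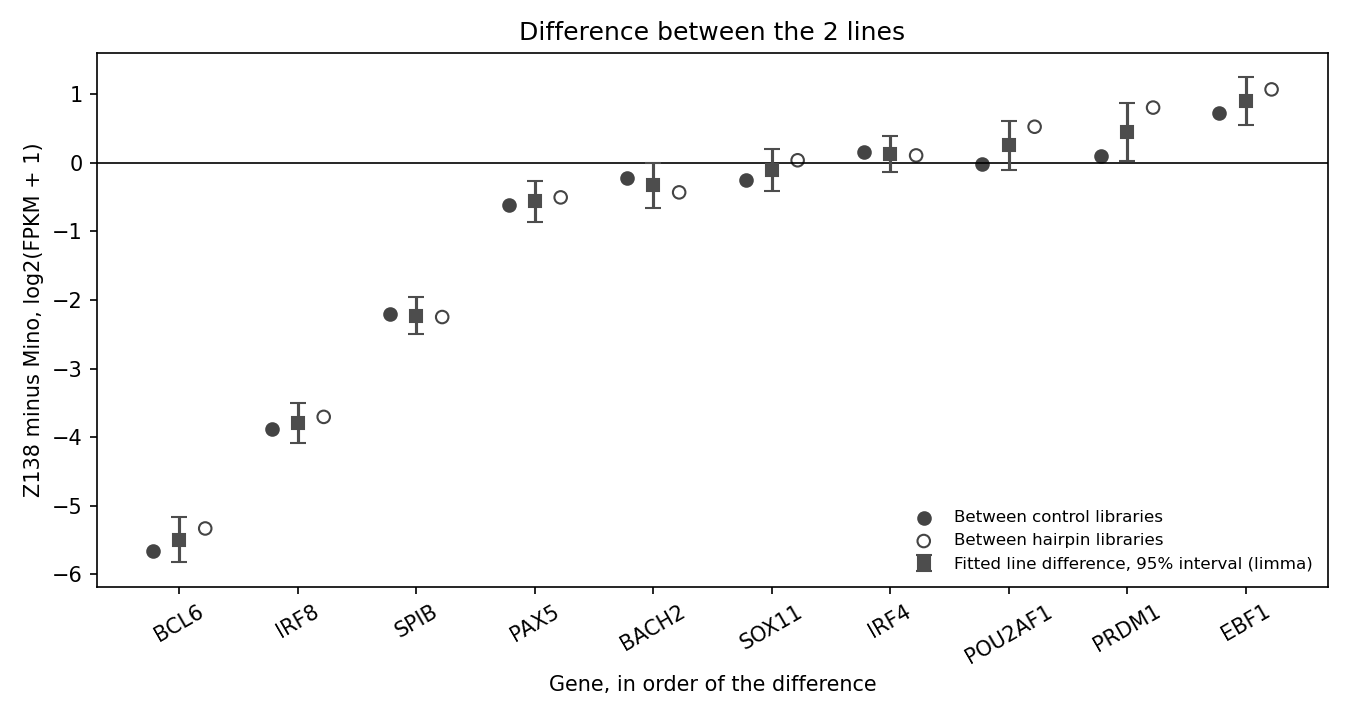
Z138 minus Mino on the log2(FPKM + 1) scale for each gene, between the control libraries (filled), between the hairpin libraries (open) and as fitted by limma with a 95% interval. BCL6, IRF8 and SPIB lie at −5.50, −3.79 and −2.23, and EBF1 at 0.90 is the highest.

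The sequences before the start sites are shown for the 4 genes with the widest line differences. RefSeq promoter sequences on GRCh38.p14 were matched for 8 of the 10 genes (not SOX11 and POU2AF1). For the 4 genes, the 250 bases before the most upstream start in that promoter set are printed on the strand the set gives, 5′ to 3′. A gene can have starts outside the set, and whether the start used is its main one was not tested. The bases after the start were found on that strand in GENCODE 29 transcripts of the same gene for 6 of the 8, but not for EBF1 and PAX5. The positions are chr3:187745469-187745718 (minus strand) for BCL6, chr16:85902580-85902829 (plus strand) for IRF8, chr19:50418688-50418937 (plus strand) for SPIB and chr5:159097957-159098206 (minus strand) for EBF1. Capitals mark matches, on either strand, to the letters of 5 motifs: the octamer ATGCAAAT, the joint ETS and IRF element (GGAA, 2 free bases, GAAA), the interferon response element (GAAA, 2 free bases, GAAA), the palindrome TTCNNNGAA of the kind read by STAT factors and BCL6, and the SOX core ACAAAG.
BCL6: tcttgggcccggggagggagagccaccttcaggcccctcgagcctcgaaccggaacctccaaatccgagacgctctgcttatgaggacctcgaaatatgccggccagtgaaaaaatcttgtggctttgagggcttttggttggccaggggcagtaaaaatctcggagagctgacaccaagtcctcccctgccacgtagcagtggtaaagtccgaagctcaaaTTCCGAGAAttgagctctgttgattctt
IRF8: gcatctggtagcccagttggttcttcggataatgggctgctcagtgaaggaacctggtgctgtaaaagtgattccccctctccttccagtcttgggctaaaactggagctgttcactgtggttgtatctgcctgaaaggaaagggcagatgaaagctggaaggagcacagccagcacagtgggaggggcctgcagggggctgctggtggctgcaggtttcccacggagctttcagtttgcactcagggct
SPIB: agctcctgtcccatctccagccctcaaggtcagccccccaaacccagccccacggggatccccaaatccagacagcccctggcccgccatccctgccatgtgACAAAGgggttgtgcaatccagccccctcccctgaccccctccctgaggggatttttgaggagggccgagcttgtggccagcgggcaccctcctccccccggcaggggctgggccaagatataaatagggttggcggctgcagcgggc
EBF1: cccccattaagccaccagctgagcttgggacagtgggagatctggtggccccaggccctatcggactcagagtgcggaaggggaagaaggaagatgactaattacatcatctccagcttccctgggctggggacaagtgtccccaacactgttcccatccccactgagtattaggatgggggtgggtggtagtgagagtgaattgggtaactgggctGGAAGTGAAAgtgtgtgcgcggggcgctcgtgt
BCL6 holds the palindrome beginning 28 bases before its start, a match that 6.57% of the table's 35116 promoter windows of that length have. SPIB holds the SOX core 148 bases before its start (13.7% of promoters), and EBF1 holds the joint ETS and IRF element 33 bases before its start (2.41%). IRF8 has no match to the 5 motifs in this window, and any other start of IRF8 was not searched. In the window searched for each of the 8 genes these were the only matches. The octamer and the interferon response element, which are in 1.63% and 3.02% of promoters, were found in none of these windows. The joint and the interferon element share their GAAA ends, so the same bases can count in part in both. A match of letters is a description and not a bound site, and binding was not measured in these libraries.

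Genes that work with the factors were grouped by function. Of 15 tested partner genes, 9 were lower and 3 higher in Z138 (80.0% called, median log2 difference −0.66), and none passed the hairpin test. Over all tested symbols 38.8% were lower and 28.7% higher (67.4% called, median −0.12), and each list's counts below are to be read beside these shares. POU2F2, the octamer-binding factor gene whose product recruits POU2AF1, was at 154 and 131 FPKM in Mino against 9.83 and 8.96 in Z138 (log2 difference −3.78, SE 0.12, adjusted p = 2.14e-07 in limma). POU2AF1 itself was level between the control libraries. BCOR, a corepressor bound by BCL6, was at 11.7 and 10.7 FPKM in Mino against 0.0725 and 0.0437 in Z138, so it was low in the same line as BCL6. BATF, a basic leucine zipper factor that pairs with IRF4 and IRF8, was at 126 and 99.5 FPKM in Mino against 4.72 and 3.30 in Z138 (log2 difference −4.51, SE 0.13). MAFF, one of the small MAF factors with which BACH2 pairs, was at 6.47 and 5.63 FPKM in Mino against 0.889 and 0.461 in Z138. HDAC3, a histone deacetylase of BCL6 corepressor complexes, had a log2 difference of −1.23. TCF3, the E2A gene that acts before EBF1, was at 157 and 162 FPKM in Mino against 217 and 199 in Z138. SPI1, the close relative of SPIB also called PU.1, was at 27.8 and 33.6 FPKM in Mino against 19.2 and 16.9 in Z138, and SPIC was listed at 0 in all 4 libraries.

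Of 6 other tested IRF genes, 4 were lower and 1 higher in Z138 (83.3% called beside 67.4% of all tested symbols, median −1.16). IRF1, an interferon-induced activator, was at 7.05 and 6.73 FPKM in Mino against 40.6 and 41.9 in Z138 (log2 difference 2.42, SE 0.13, adjusted p = 1.79e-06 in limma). IRF5 had a log2 difference of −1.70, IRF9 of −1.43, IRF2 of −1.22 and IRF3 of −1.11, and IRF7 at 0.21 did not pass. In the SOX family 4 of 16 genes had a mean of 1 FPKM or more. Of these, SOX4 and SOX18 were lower in Z138, by −1.61 and −0.81, and SOX12 and SOX8 did not pass.

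Among 21 other B lineage factors, 11 were lower and 5 higher in Z138 (76.2% called beside 67.4% of all tested symbols, median −0.53). BCL11A, a factor required for early B cells, was at 11.2 and 11.6 FPKM in Mino against 0.977 and 0.881 in Z138. MEF2C, which acts downstream of the B cell receptor, was at 9.24 and 8.19 FPKM in Mino against 0.492 and 0.697 in Z138. TCF4, an E protein gene, had a log2 difference of −2.30, while KLF2, a quiescence factor, was higher in Z138 by 2.33. MEF2B, a BCL6 activator, was at 270 and 354 FPKM in Mino against 290 and 268 in Z138 and did not pass, although BCL6 was near the bottom of the range in Z138. ID2, an inhibitor of E proteins, had a log2 difference of −0.78, ETS1 of −1.76 and ELF1 of −0.53.

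Target and stage genes of the factors differed between the lines in both directions. Of 11 tested genes activated by PAX5 or EBF1, 7 were lower and 3 higher in Z138 (90.9% called beside 67.4%, median −0.50). IGLL1, a surrogate light chain gene of early B cells and an EBF1 target, was at 0.370 and 0.705 FPKM in Mino against 225 and 151 in Z138. FCRLA and FCER2 were higher in Z138 by 2.61 and 2.40 on the log2 scale, and VPREB3 and CD79B were lower by −1.12 and −0.54. CD79A differed by −0.36 (adjusted p = 0.0241 in limma) and did not pass after scaling.

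Of 10 plasma cell genes, 7 were higher and 2 lower in Z138 (median 1.46), beside 28.7% higher and 38.8% lower over all tested symbols. IGJ, the immunoglobulin joining chain gene, was at 2.29 and 1.33 FPKM in Mino against 1159 and 1340 in Z138. FKBP11, a chaperone of secretory cells, was at 24.4 and 27.3 FPKM in Mino against 590 and 474 in Z138. MZB1 and SDC1 were higher in Z138 by 1.80 and 2.37 on the log2 scale, and ELL2, an elongation factor of plasma cells, was lower by −1.85. PRDM1 and IRF4, which drive that programme, did not pass as deposited, and XBP1 did not either (0.34), although PRDM1 and XBP1 passed after scaling. XBP1 was at 98.4 and 160 FPKM in Mino against 160 and 159 in Z138, so the Mino control library was the low one. Its line difference was 0.70 between controls and −0.016 between hairpin libraries. The Mino hairpin ratio of XBP1 was also 0.70, at the 99.3 percentile. Of the 9 germinal centre genes, 4 had a mean of at least 1 FPKM, with RGS13 and ELL3 lower in Z138 by −2.72 and −1.01, GCSAM higher by 1.42 and S1PR2 not passing. MME and SERPINA9, other germinal centre genes, were below 1 FPKM in every library.

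All 8 genes that have been linked to SOX11 in mantle cell lymphoma passed between the lines, 6 higher and 2 lower in Z138 (median 0.92), beside 67.4% of all tested symbols. SOX11 itself did not pass. PDGFA, an angiogenic growth factor gene, was at 2.11 and 1.52 FPKM in Mino against 19.4 and 14.1 in Z138. PTK2, the focal adhesion kinase gene, was at 6.06 and 6.11 FPKM in Mino, 0.00929 in the Z138 control and listed at 0 in the Z138 hairpin library. CXCR4, the homing receptor gene, was at 145 and 144 FPKM in Mino against 300 FPKM in both Z138 libraries. HILPDA, a lipid droplet gene also induced by hypoxia, was at 314 and 155 FPKM in Mino against 35.1 and 27.0 in Z138. DBN1 and SETMAR were higher in Z138 by 1.16 and 1.21, and CD70 by 0.58.

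**Figure D4:**
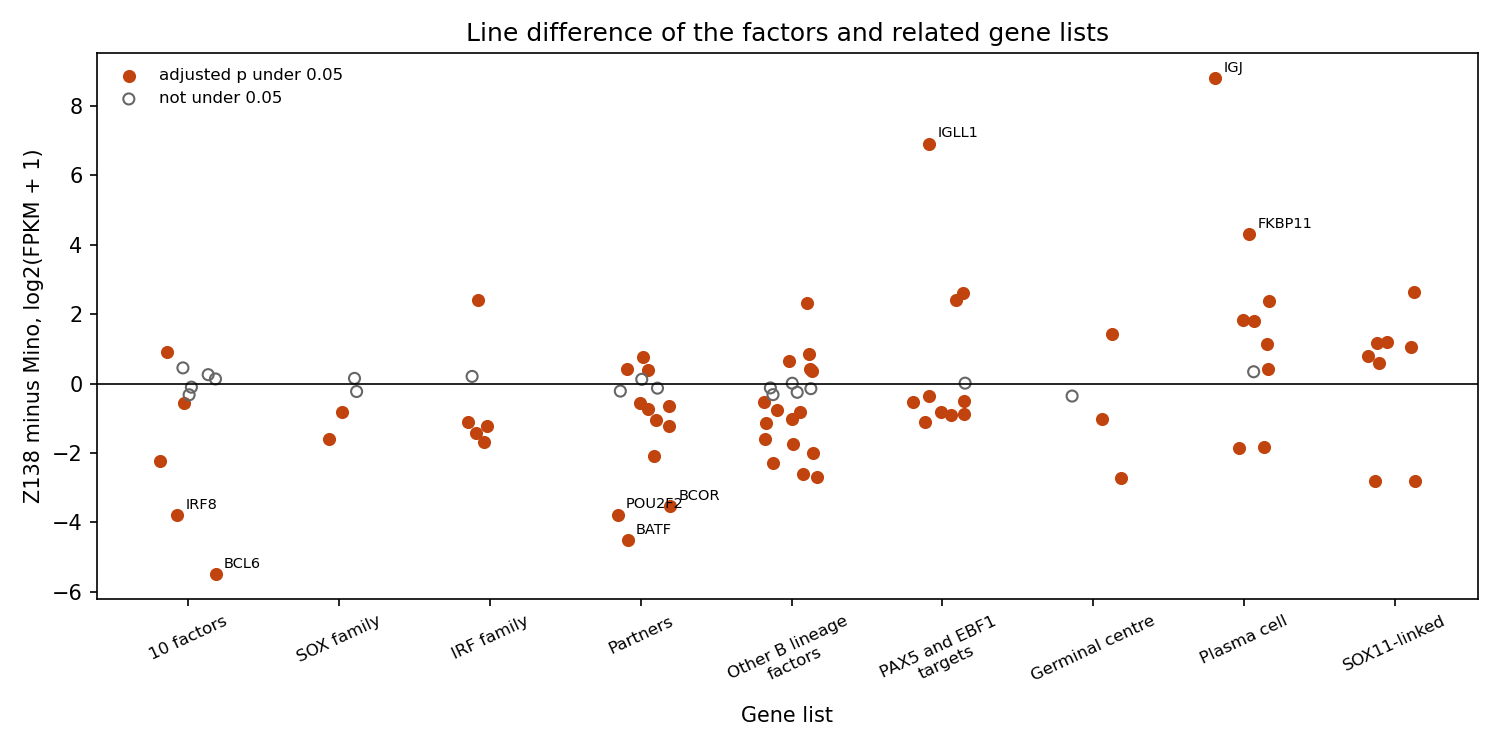
Z138 minus Mino on the log2(FPKM + 1) scale for every tested gene of each list, 1 point per gene, filled where the limma adjusted p was under 0.05. IGJ at 8.82 and IGLL1 at 6.92 are the highest points, and BCL6 at −5.50 is the lowest.

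In the hairpin comparison none of the genes in these lists passed. Their median log2 differences ran from −0.12 for the SOX11-linked genes to 0.026 for the germinal centre genes, beside 0.012 for all tested symbols. Unadjusted p-values under 0.05 were seen for 3 of 8 SOX11-linked genes, HILPDA, PDGFA and CD70, with mean differences of −0.69, −0.37 and −0.33. They were also seen for the partner genes BATF (−0.37) and BATF3 (0.43), for HHEX (0.33) and for CD72 (−0.63) and CIITA (−0.30). BATF3, HHEX, CD72 and CIITA were named after their values had been seen. Over all tested symbols 320 of 11484 had an unadjusted p under 0.05. These lists were chosen with earlier results of these data known, so their counts are descriptions only.

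The genes whose levels over the 4 libraries were most like those of each factor were ranked by Euclidean distance between log2(FPKM + 1) values centred on each gene's mean, among 8073 symbols above 0 in every library with a mean of 5 FPKM or more. With 4 libraries this is a description of pattern only. For SOX11 the nearest were LEF1, a Wnt pathway factor gene (distance 0.025), RARS2 (0.026) and ZNF74 (0.033). A flat pattern such as that of SOX11 is common, and 20.0% of the symbols lay within 0.3 of it. LEF1 was at 35.8 and 33.0 FPKM in Mino against 29.8 and 33.2 in Z138. For BCL6 the nearest was SAT1 (distance 0.15), at 245 and 220 FPKM in Mino against 4.50 and 4.30 in Z138, and 0.0248% of symbols lay within 0.3. For IRF8 the nearest was ARHGAP24 (0.039), for SPIB CD58 (0.11), for PRDM1 MYO1G (0.11) and for POU2AF1 the linker histone gene HIST1H1C (0.074), at 127 and 84.7 FPKM in Mino against 121 and 117 in Z138. The nearest to PAX5 was PARP6 (0.027), to EBF1 PWP1 (0.0075), to IRF4 C16orf70 (0.017) and to BACH2 MAFIP (0.0048).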

How the data were processed

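RNA was sequenced from 4 cultures, 1 library per line and vector, from column-purified RNA with a TruSeq kit, as the labels' protocols state. The authors deposited FPKM values, 1 column per library, per the file headers. TopHat and hg19 are named in the submitters' processing notes. For the program that computed FPKM, its annotation, its filters and its use of strand, nothing is stated in the sources used here. Among symbols at or below 0.1 FPKM no value ratio between libraries was shared by more than 20.2%, so whole reads were not recovered and depth is unknown. What an exact 0 stands for is not stated either, and whether any 0 is a failed estimate was not tested.

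Values were analysed as log2(FPKM + 1) with limma 3.58.1 in R 4.3.3 (line and hairpin as additive terms, mean-variance trend, 1 residual and 6.88 prior degrees of freedom) over 11484 symbols whose mean reached 1 FPKM, with Benjamini-Hochberg adjustment at 0.05. The fit was tested on simulated data. The line term is the block that pairs the libraries, because each line supplied its own control. Alternatives changed the pseudocount, filter, scaling, block, trend and GC and length trends. GC content and length came from the longest GENCODE 29 transcript, for 93.9% of tested symbols. In that annotation exons of 6 of the 10 genes overlap an unnamed locus, and 0 of these 7 loci are in the table.

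The 10 genes and all lists were chosen with earlier results of these data known. Besides the 10 genes, the text names from each list the 4 with the highest mean, any that passed the hairpin test and up to 4 with the largest line difference among those that passed, plus the genes nearest in pattern (3 for SOX11, 1 for each other gene). SPI1, SPIC, POU2F1, CCND1, CD5, CD22, EPCAM, MME and SERPINA9 were named outside that rule, after their values had been seen.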

Additional observations from a re-analysis of the deposited data

Results flagged for a closer look

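In 5 of the 10 genes the hairpin library was lower than control in 1 line and higher in the other. Of all tested symbols 42.5% had the same sign in both lines, so opposite signs were no more frequent among these genes. The log2 ratios in Mino and Z138 were −0.13 and 0.16 for SOX11, −0.086 and 0.031 for PAX5, −0.16 and 0.17 for EBF1, −0.63 and 0.085 for PRDM1, and 0.15 and −0.056 for BACH2. All 5 kept opposite signs with GC and length trends removed, where EBF1 was at −0.14 and 0.063. Among the other list genes, FCER2 (0.70 and −0.59) and MZB1 (0.45 and −0.33) also lay on opposite sides of 0, with larger ratios. With the libraries scaled to a common median the Z138 ratio of PAX5 was −0.022, on the same side as Mino. The Z138 ratio of POU2AF1 was −0.00033 as deposited. With GC and length trends removed it was 0.089, against −0.57 in Mino. With 1 pair of libraries per line, the difference between the lines' ratios was not tested.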

How the results depend on the processing

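In none of the alternatives did any of the 10 genes pass the hairpin test; over them the adjusted p of each was 0.9996 or more in limma. The count of all symbols passing it was 14 (7 higher, 7 lower), and it was 2 with no filter on low values, 9 at a mean of at least 5 FPKM, 28 (22 higher, 6 lower) without symbols listed at 0, 24 (15 higher, 9 lower) with scaled libraries and 7 (1 higher, 6 lower) with GC and length trends removed. With no replicate block (the line term left out) it was 0, with 9 symbols at an unadjusted p under 0.05. The cause of these changes was not tested. Leaving out a line leaves the ratios of the other, which have no test. Mean hairpin differences near 0 turned sign: SOX11 to −0.0095 with scaling, PAX5 to 0.016 with GC and length trends removed, and EBF1 to −0.0074 with a pseudocount of 0.1, −0.014 with scaling and −0.039 with GC and length trends removed. In the line comparison, BCL6, IRF8, SPIB, PAX5 and EBF1 passed in every alternative in which they were tested, and 4 to 7 of the 10 genes passed. The scaled SOX11 line difference was 0.025, and that of POU2AF1 ran from −0.016 without the Mino hairpin library to 0.53 without the Mino control. PRDM1 passed in 4 alternatives of 11, POU2AF1 in 2 of 11 and BACH2 in 1 of 10. EBF1 and BACH2 are below the 5 FPKM filter. The fits that left out a library had line as the only term, assumed that the lone library varies like the other line's pair, and were chosen after the data had been seen; over them 6297 to 6957 symbols and 5 to 7 of the 10 genes passed. With a pseudocount of 0.1, symbols at least 2-fold apart within a line went from 74 to 131 in Mino and from 90 to 154 in Z138. Depth is unknown, so counting error at low values such as those of BCL6 in Z138 cannot be given.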
